A study of Drosophila melanogaster with 2 samples.

Results

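The 36 genes described here code for the ion channels and transmitter receptors of the fly nervous system, taken as a fixed list of names. All 36 were found among the 15902 features of a single-cell table of *Drosophila melanogaster* larval brains with their eye discs, and together they held 278614 of 243468253 transcript counts, or 0.114%. The list holds the voltage-gated sodium channel *para*, 8 voltage-gated potassium channels, 3 voltage-gated calcium channels, 2 calcium-activated potassium channels, the hyperpolarization-activated channel *Ih*, 10 nicotinic acetylcholine receptor subunits, 4 ligand-gated chloride channel subunits, 5 G protein-coupled receptors and 2 NMDA receptor subunits. They were chosen by name, with earlier results of these data known.

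A neuron fires when sodium channels open, and it returns to rest when potassium channels follow. Calcium channels couple the action potential to transmitter release. In the fly brain acetylcholine is the main excitatory transmitter and acts on nicotinic receptors, GABA and glutamate open chloride channels, and muscarinic and GABA-B receptors act more slowly through G proteins. Newborn neurons lack most of this equipment and acquire it as they mature, which is why the genes were followed from newborn to mature neurons and then outside the nervous system.

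The labels describe 1 library of *mirr* > *ND-42* RNAi larvae (line BL28894, against a subunit of respiratory complex I) and 1 library of *mirr* > OreR control larvae, all raised at 25 °C for 120 h. The driver *mirr-Gal4* is active in the dorsal part of the eye disc. The 2 deposited tables are identical in every value and hold the same 33552 cell barcodes, so the cells were used once, as 1 library whose genotype is open, and no value below is a value of either genotype. Cells held 500 to 333220 counts of unique molecules (UMIs), with a median of 4092 UMIs and 1261 detected genes.

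Cells were sorted into classes by the presence of at least 1 UMI of a few genes that are not on the list. The newborn neurons (8129 cells) had *Hey*, a Notch target of newly born neurons, without the synaptic vesicle gene *nSyb*. The cholinergic (3429 cells), glutamatergic (1544) and GABAergic (777) neurons had *nSyb* with only *VAChT*, only *VGlut* or only *Gad1*, and together they are called transmitter neurons (5750). Neurons with *nSyb* were also divided into 2591 Hox-positive cells (*Antp*, *Ubx*, *abd-A* or *Abd-B*, the Hox genes of the ventral nerve cord) and 8513 Hox-negative cells. The other classes were 1665 cells with *gl* and *elav*, the rule for photoreceptors, 842 cells with the glial gene *repo*, 1880 disc cells with *eya* or *Dll* and no *elav*, and 16 cells with the blood cell genes *Hml* and *NimC1*. A wider blood cell rule with *Hml* and *Pxn*, added after the data had been seen, took 74 cells. A level below is the class's pooled UMIs of a gene per 10000 UMIs. A share is the percent of cells with at least 1 UMI, given after thinning to 2000 UMIs unless stated, so that deep and shallow classes can be compared. The 7768 of 33552 cells with fewer UMIs, among them 531 transmitter neurons, 1038 newborn neurons and 276 disc cells, were left out of these shares. UMIs are not divided by transcript length, so levels are compared between classes and never between genes.

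Several classes did not hold only the cells their rule names. Among cells with *repo*, 69.5% also had *elav*, and they are called *repo* cells here. Among cells with *gl* and *elav*, 51.8% had the neuroblast gene *dpn*, 19.3% had *sev* and 3.78% had *chp* at full depth. Their median depth of 11263 UMIs was more than that of any class but the blood cells. Their 4 neuroblast markers summed to 1.44 UMIs per 10000, against 2.10 in all cells. Their 6 photoreceptor markers, *gl* among them, summed to 2.33, against 0.528 in all cells. They are called *gl*, *elav* cells here. Of the 1880 disc cells, 39 also met the Hox-positive rule and 141 the Hox-negative rule, both of which require *nSyb*. Their 6 disc markers summed to 22.0 UMIs per 10000, against 20.1 in *gl*, *elav* cells, 20.5 in GABAergic neurons and 16.7 in all cells. Their 7 neuron markers summed to 4.32, against 24.6 in all cells. The part of other cell types in the disc class was not tested. In the newborn neurons the 4 neuroblast markers summed to 2.87, against 2.10 in all cells and 1.22 in transmitter neurons. A list of 4 markers of newborn neurons summed to 18.5 there, against 16.3 in all cells and 28.2 in transmitter neurons. The name newborn neurons therefore stands for the rule only. The part of other cell types in this class, and in the ratios over it, was not tested. The cholinergic and GABAergic classes carried a partner gene, and the markers used held none for glutamatergic neurons. *ChAT* was found in 36.1% of cholinergic and 4.89% of GABAergic neurons at full depth, and *VGAT* in 25.7% of GABAergic and 9.24% of cholinergic neurons. Scrublet called 12.8% of all cells doublets, with 22.5% of transmitter neurons, 11.8% of newborn neurons, 28.2% of *gl*, *elav* cells and 4.68% of disc cells.

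Because there was 1 library and no replicate, no p-value is given. A ratio of levels has an exact 95% interval that covers counting error only. A gene was called higher or lower where its ratio was at least 2-fold, the interval left out 1, and both classes together held at least 20 UMIs. The same rule over all features gave the background share beside each count. Cells that met the rules of both classes were left out of their comparison.

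Nearly the whole list was higher in transmitter neurons than in newborn neurons. Of 35 members with enough UMIs, 34 were called higher and 0 lower, against 15.3% of all 11181 features called higher and 2.33% called lower. The median ratio of the members was 11.3, and that of all features was 1.07. The 36th gene, *Grd*, had 24 UMIs in all cells and is described by its counts. At an equal depth of 2000 UMIs the median member ratio was 11.2, and without called doublets it was 17.6. The rule for transmitter neurons requires *nSyb* and the rule for newborn neurons forbids it, so that the classes were set apart by another gene of mature neurons. *Syt1* was found at full depth in 59.2% of transmitter and 5.97% of newborn neurons, and *brp* in 63.4% and 10.5%, and the part of these differences in maturity in the result was not tested.

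**Figure D1:**
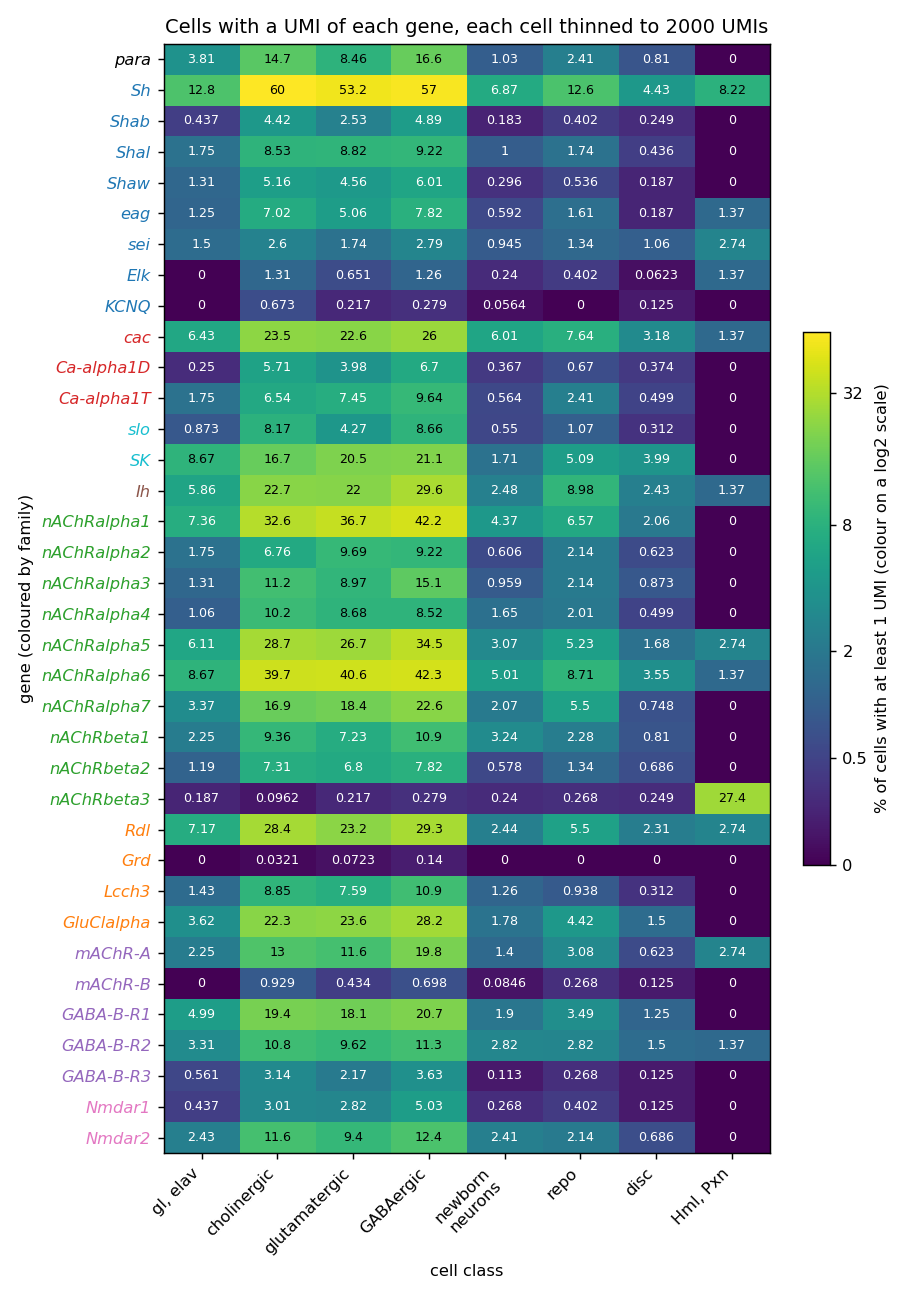
Share of cells with at least 1 UMI of each of the 36 genes (rows, names coloured by family) in 8 cell classes (columns), each cell thinned to 2000 UMIs. Numbers are percent of cells and the colour is on a log2 scale. The 3 transmitter classes are the bright columns, *Sh* is found in 60.0%, 53.2% and 57.0% of their cells, and *nAChRbeta3* is bright only in the cells with *Hml* and *Pxn*, at 27.4%.

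Among the channels of the action potential, *para*, the pore-forming sodium channel subunit (chromosome X, 16455027 to 16533096, here and below in Ensembl's BDGP6 annotation), had 0.865 UMIs per 10000 in transmitter neurons and 0.0422 in newborn neurons, a ratio of 20.5 (95% interval 18.0 to 23.4). Its share was 13.3% of transmitter and 1.03% of newborn neurons. *Sh*, the A-type potassium channel Shaker, was at 5.26 in transmitter neurons and 0.435 in newborn neurons, 12.1 times higher, and had the highest share of the list in both classes, 57.8% and 6.87%. *Shab*, a delayed rectifier that carries sustained potassium current, was at 0.180 and 0.00834, which gave the largest ratio of the list, 21.6 (16.2 to 29.4). Both the sodium channel and its main repolarizing partners were therefore an order of magnitude more abundant in the transmitter neurons.

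The other potassium channels were higher too, by unequal amounts. *Shaw* (0.192 in transmitter and 0.0150 in newborn neurons, ratio 12.8), *eag* (0.281 and 0.0242, ratio 11.6), *KCNQ*, the M-type channel (0.0165 and 0.00170, ratio 9.68) and *Shal*, the A-type channel of cell bodies and dendrites (0.344 and 0.0361, ratio 9.54) lay near the median. *Elk* was at 0.0488 and 0.00800, a ratio of 6.10. *sei*, the ERG-type channel, stood at the other end with 0.0940 and 0.0439, a ratio of 2.14 whose interval of 1.83 to 2.51 includes the 2-fold limit.

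Among calcium channels, the low-voltage T-type gene *Ca-alpha1T* was at 0.403 in transmitter neurons and 0.0225 in newborn neurons (ratio 18.0, 15.1 to 21.6), and the L-type gene *Ca-alpha1D* at 0.203 and 0.0138 (ratio 14.7). *cac*, the presynaptic channel that triggers release, was at 1.19 and 0.287, a smaller ratio of 4.15 (3.93 to 4.38). The 3 intervals show that *cac* differed less between the classes than the other 2 calcium channels did. Of the calcium-activated potassium channels, *slo* (BK) was at 0.362 and 0.0238 (ratio 15.2) and *SK* at 0.996 and 0.111 (ratio 8.97). *Ih*, which opens on hyperpolarization and helps to pace firing, was at 1.27 in transmitter and 0.131 in newborn neurons, 9.69 times higher.

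Of the 10 nicotinic subunits, 9 were called higher. Their ratios lay close together for 7 of them, between 9.94 for *nAChRalpha1* (2.03 in transmitter and 0.204 in newborn neurons) and 13.4 for *nAChRalpha3* (0.532 and 0.0398). *nAChRalpha6*, the subunit targeted by spinosyn insecticides, was at 3.51 and 0.298 (ratio 11.8), *nAChRalpha5* at 1.85 and 0.144 (12.9) and *nAChRalpha7* at 1.24 and 0.107 (11.6). *nAChRalpha2* (0.306 and 0.0270, ratio 11.3) and *nAChRbeta2* (0.299 and 0.0262, ratio 11.4) are neighbours on chromosome arm 3R, at 24485428 to 24491147 and 24509228 to 24515106, with *nAChRalpha1* (24393896 to 24457157) 28.3 kb away. The intervals of these 3 linked genes overlapped, with 9.36 to 10.6 for *nAChRalpha1*, 9.59 to 13.4 for *nAChRalpha2* and 9.64 to 13.6 for *nAChRbeta2*. This was not particular to linked genes, since that of *nAChRalpha7* on chromosome X, 10.7 to 12.6, also overlapped those of *nAChRalpha2* and *nAChRbeta2*.

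Smaller ratios were found for *nAChRalpha4* (0.375 in transmitter and 0.0580 in newborn neurons, ratio 6.46) and *nAChRbeta1* (0.405 and 0.113, ratio 3.59, 3.28 to 3.93). *nAChRbeta3* was the only tested member not called, at 0.0306 and 0.0233 with a ratio of 1.31 (1.03 to 1.67), while at 2000 UMIs its share was 0.153% of transmitter and 0.240% of newborn neurons, so no direction is read for it.

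The receptors for inhibitory transmitters followed the same direction. *Rdl*, the subunit of the GABA-gated chloride channel hit by dieldrin (3L, 9145838 to 9182149), was at 2.51 in transmitter neurons and 0.124 in newborn neurons, 20.2 times higher (18.8 to 21.8). *GluClalpha*, the glutamate-gated chloride channel hit by ivermectin, was at 1.25 and 0.0818 (ratio 15.2) and *Lcch3*, a beta-like GABA receptor subunit, at 0.368 and 0.0456 (ratio 8.08). *Grd* had 11 UMIs in transmitter and 2 in newborn neurons, too few for the rule.

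The 5 G protein-coupled receptors and both NMDA receptor genes were called higher. *mAChR-B* (0.0281 in transmitter and 0.00204 in newborn neurons, ratio 13.8), *mAChR-A* (0.593 and 0.0548, 10.8), *GABA-B-R3* (0.135 and 0.0126, 10.7) and *GABA-B-R1* (0.828 and 0.0781, 10.6) had like ratios. *GABA-B-R2*, which forms the working receptor together with *GABA-B-R1*, was at 0.412 and 0.108, a ratio of 3.83 (3.50 to 4.20) that lay below the interval of its partner, 9.63 to 11.7. The NMDA receptor pair showed the same kind of gap. *Nmdar1*, the obligatory subunit, was at 0.126 and 0.00919 (ratio 13.7, 10.4 to 18.5), and *Nmdar2* at 0.465 and 0.0949 (ratio 4.90, 4.47 to 5.39).

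**Figure D2:**
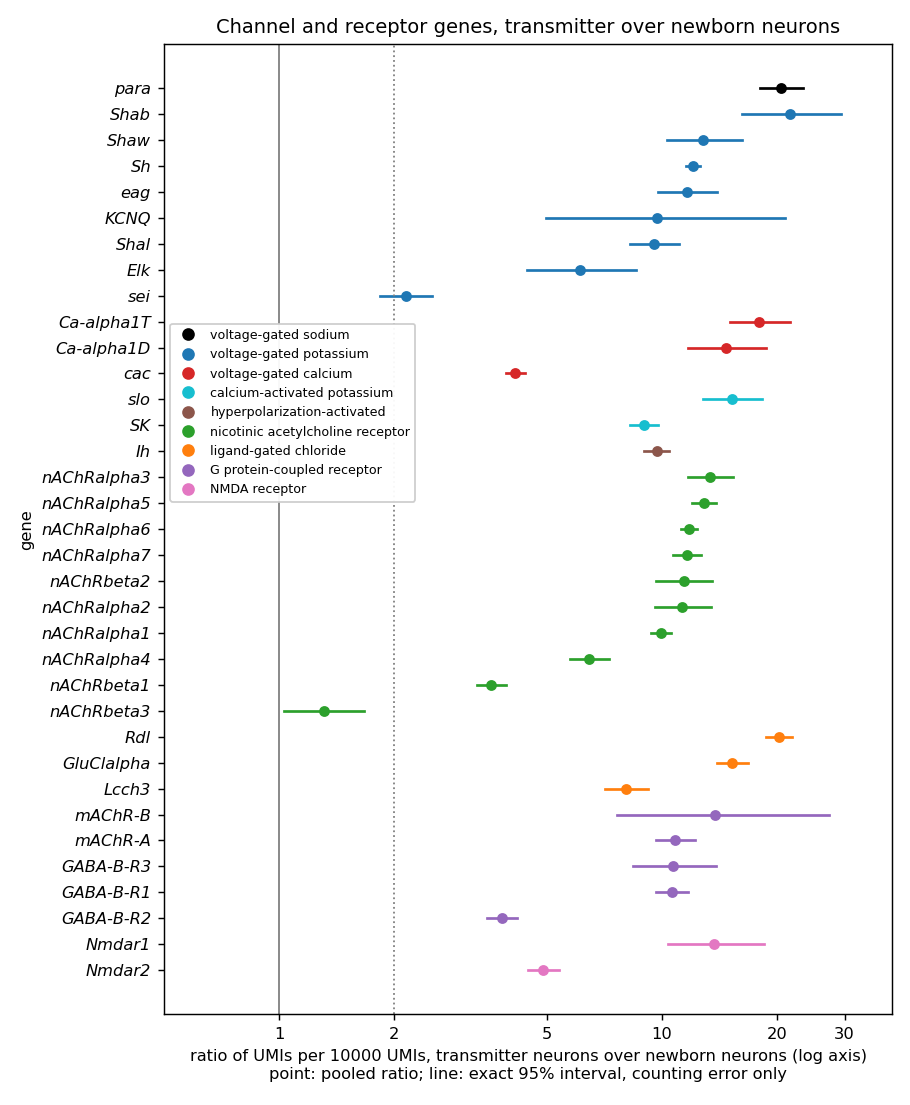
Ratio of UMIs per 10000 UMIs, transmitter neurons over newborn neurons, on a log axis, for the 35 members with enough UMIs, grouped by family. Points are pooled ratios, lines exact 95% intervals for counting error, the solid vertical line marks 1 and the dotted line 2. Ratios run from 1.31 for *nAChRbeta3* to 21.6 for *Shab*, *sei* is at 2.14, and *nAChRbeta1*, *GABA-B-R2*, *cac* and *Nmdar2* lie between 3.59 and 4.90.

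A transmitter neuron at 2000 UMIs showed a median of 4 of the 36 genes (mean 4.73, up to 24), and 9.01% of these cells showed none. A newborn neuron showed a median of 0 (mean 0.592), and 67.4% showed none. Cells with both *Hey* and *nSyb*, which belong to neither of these rules unless they carry a transmitter gene, had a median of 2 and a mean of 2.87. Cells with *nSyb* but no transmitter gene had a mean of 3.15. These means lay between those of newborn and transmitter neurons. Scrublet called 38.9% of the cells with *Hey* and *nSyb* doublets, and 19.0% of those with *nSyb* but no transmitter gene. Cells with *nSyb* and 2 or 3 transmitter genes, which are left out of the transmitter neurons, had a mean of 5.28. Scrublet called 29.3% of them doublets. The part of doublets in all these means was not tested.

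The shares in disc cells are set beside those of the other classes. Unlike in the ratios, cells of several classes were kept here, and 156 cells were in both the newborn and the disc class. The rule for disc cells forbids *elav* and 4.68% of them were called doublets, against 11.8% of newborn neurons, so they give no measured background for the neurons. Transmitter neurons exceeded the disc share with non-overlapping 95% intervals for 33 of 36 genes. For counts of this kind, here and below, the share over all features was not computed, so they do not set the list apart. Newborn neurons, at a median depth of 4303 UMIs against 7098 UMIs in disc cells, exceeded it for 10 genes, which were *Sh*, *cac*, *nAChRalpha1*, *nAChRalpha4*, *nAChRalpha5*, *nAChRalpha7*, *nAChRbeta1*, *Lcch3*, *GABA-B-R2* and *Nmdar2*. Of the 6 genes with ratios under 5 over newborn neurons, *cac* (6.01% of newborn neurons and 3.18% of disc cells), *nAChRbeta1* (3.24% and 0.810%), *Nmdar2* (2.41% and 0.686%) and *GABA-B-R2* were above the disc share, and *sei* (0.945% and 1.06%) and *nAChRbeta3* (0.240% and 0.249%) were not. For 25 genes the intervals of newborn neurons and disc cells overlapped, and a difference was not detectable at this depth. *SK* was lower in newborn neurons than in disc cells, 1.71% and 3.99%.

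The 3 transmitter classes differed much less from each other. Between cholinergic and glutamatergic neurons 0 members were called higher and 0 lower, against 2.24% and 1.45% of 9927 features. Between cholinergic and GABAergic neurons the counts were again 0 and 0, against 2.20% and 1.46% of 9744 features, and between glutamatergic and GABAergic neurons 0 and 0, against 1.66% and 1.82% of 8803 features. For 35 genes these backgrounds come to less than 1 gene in each direction, so the counts of 0 do not set the list apart. The members' median ratios were 0.983, 0.813 and 0.840. The first turned to 1.18 at 2000 UMIs, with 26 of 34 members above 1, and to 1.14 by a mean over cells, so no direction is read for cholinergic over glutamatergic neurons. The interval lay below 1 for 22 members in cholinergic and 19 in glutamatergic neurons set against GABAergic ones. The share of all features with such intervals was not computed, so these counts do not set the list apart. The 3 comparisons share their classes and are not independent of each other.

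Within the 2-fold limit, *Rdl*, *slo*, *para* and *Shab* were among the genes lowest in glutamatergic neurons. *Rdl* had levels of 2.70 in cholinergic, 1.85 in glutamatergic and 2.87 in GABAergic neurons, *slo* at 0.405, 0.243 and 0.387, *para* at 0.887, 0.666 and 1.11, and *Shab* at 0.178, 0.151 and 0.236. The cholinergic over glutamatergic ratios were 1.46 (1.40 to 1.54) for *Rdl*, 1.67 (1.47 to 1.91) for *slo* and 1.33 (1.23 to 1.45) for *para*, while that of *Shab*, 1.18, had an interval of 0.991 to 1.40. Pooled levels give most weight to the deepest cells. With every cell thinned to 2000 UMIs the same ratios were 2.04 for *Rdl*, 2.57 for *slo* and 2.01 for *para*, and these 3 genes then passed the 2-fold limit. Set against GABAergic neurons at 2000 UMIs, glutamatergic neurons were at 0.442 times the level for *slo*, 0.472 for *Shab*, 0.481 for *para* and 0.545 for *Rdl*. All 4 genes were thus lower in glutamatergic than in GABAergic neurons in both weightings, and how far depended on the weighting. Set against cholinergic neurons, *Rdl*, *slo* and *para* were lower in both weightings, and the pooled interval of *Shab* included 1.

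Other genes differed along another line. *Ca-alpha1T* was at 0.353 in cholinergic and 0.436 in glutamatergic against 0.558 in GABAergic neurons. *mAChR-A*, an acetylcholine receptor, was at 0.558 in cholinergic and 0.555 in glutamatergic against 0.804 in GABAergic neurons. *nAChRalpha1* was lowest in cholinergic neurons, at 1.80 against 2.37 in glutamatergic and 2.41 in GABAergic neurons, as were *nAChRalpha2* (0.259 against 0.374 and 0.381) and *SK* (0.894 against 1.16 and 1.14). In each of these 3 genes the intervals of the glutamatergic and GABAergic levels overlapped. At 2000 UMIs the GABAergic neurons showed a median of 5 members (mean 5.43), cholinergic neurons 4 (4.72) and glutamatergic neurons 4 (4.39).

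**Figure D3:**
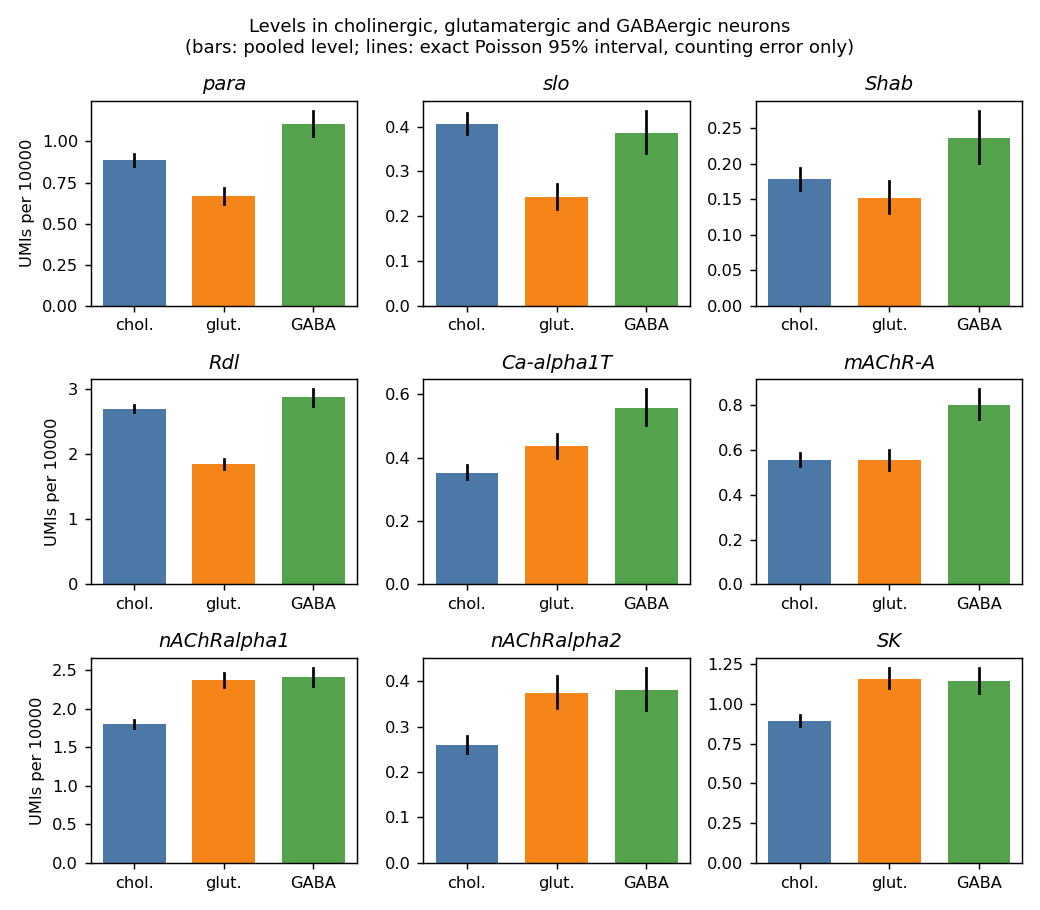
Levels of 9 members, chosen after their values were seen, in cholinergic (chol.), glutamatergic (glut.) and GABAergic (GABA) neurons. Bars are pooled UMIs per 10000 UMIs from 0, and lines exact Poisson 95% intervals for counting error. *para*, *slo*, *Shab* and *Rdl* are lowest in glutamatergic neurons, and *nAChRalpha1*, *nAChRalpha2* and *SK* are lowest in cholinergic neurons.

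Hox-positive and Hox-negative neurons were compared by detection of the Hox genes, and are not read as ventral cord and brain. A cell without a UMI of these genes may still express them, above all in shallow cells. The rule for *gl*, *elav* cells was also met by 226 Hox-positive and 372 Hox-negative cells. Of 35 members 0 were called higher and 0 lower, against 2.90% and 3.19% of 11177 features. The direction of the smaller differences depended on how cells were weighted. The pooled ratios had a median of 0.797 and lay below 1 with their intervals for 30 members and above 1 for 2. The share of all features with such intervals was not computed. At 2000 UMIs, in contrast, the median was 1.11, 26 members lay above 1, and 23 members changed sides. Hox-positive neurons were deeper, with a median of 6891 against 4462 UMIs, and had more called doublets, 28.9% against 19.2%, so no direction is read for the list.

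*Sh* was lower in Hox-positive neurons in every weighting. It was at 2.93 in Hox-positive and 4.86 in Hox-negative neurons, a ratio of 0.603 (0.590 to 0.617), with shares of 46.6% and 52.0%. *para* was at 0.668 and 0.613, a ratio of 1.09 (1.03 to 1.15), with shares of 14.2% and 9.57%, but within cholinergic neurons alone its ratio was 0.968. *nAChRalpha7* had a higher share in Hox-positive neurons, 21.3% and 14.5%, with a pooled ratio of 1.05 (1.01 to 1.10) and 1.06 within cholinergic neurons.

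In *gl*, *elav* cells, *repo* cells and disc cells nearly the whole list was lower than in transmitter neurons. In *gl*, *elav* cells 0 members were higher and 35 of 35 lower than in transmitter neurons, against 11.9% and 18.6% of 10674 features, and the median ratio was 0.0732. The median was 0.0415 without called doublets and 0.115 at 1000 UMIs. *slo* was at 0.0142 in *gl*, *elav* cells and 0.420 in transmitter neurons, the smallest ratio, 0.0338 (0.0242 to 0.0461), and *para* was at 0.0731 and 0.984, a ratio of 0.0743. *Sh* was at 0.354 and 5.96, *nAChRalpha6* at 0.260 and 3.98, *Rdl* at 0.155 and 2.89, and *GluClalpha* at 0.0793 and 1.42. The members furthest from this pattern were *sei* (0.0461 and 0.0999, ratio 0.461), *nAChRbeta3* (0.0145 and 0.0333, ratio 0.437) and *SK* (0.340 and 1.09, ratio 0.310, 0.289 to 0.333). The ratio of *nAChRbeta3* rests on 42 and 132 UMIs and turned round at an equal depth of 1000 UMIs.

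*SK* (X, 5340236 to 5405138) was the single member whose share stood above that of disc cells in *gl*, *elav* cells without *nSyb* (1067 cells). This rule, added after the data had been seen, left out cells with *nSyb* but not all neuronal RNA. In these cells the 7 neuron markers summed to 9.41 UMIs per 10000, against 4.32 in disc cells. The 355 of them that also met the rule for newborn neurons were kept in the share. The share of *SK* was 7.09% (5.59 to 8.84) in these cells and 3.99% (3.09 to 5.07) in disc cells. Its level in 712 such cells that were not newborn neurons was 0.372, against 0.0869 in newborn neurons, a ratio of 4.28 (3.74 to 4.90). Of these *gl*, *elav* cells without *nSyb*, 51.2% had *dpn* at full depth. Their 4 neuroblast markers summed to 1.57 UMIs per 10000, against 2.10 in all cells. The part of other cell types in the *SK* level was not tested. For the other 35 members the intervals of these cells and of disc cells overlapped.

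Set against *repo* cells, transmitter neurons were higher for 34 of 35 members and lower for 0, against 14.3% and 8.54% of 10390 features, with a median ratio of 7.80, or 13.6 without called doublets. *Shab* had the largest ratio, 34.1, from 5 UMIs in *repo* cells (interval 14.6 to 105), followed by *nAChRalpha5* (1.89 in transmitter neurons and 0.137 in *repo* cells, 13.8) and *Rdl* (2.58 and 0.188, 13.7). The smallest called ratios were those of *sei*, 2.26 (1.63 to 3.22), and *Ih*, 3.16 (2.85 to 3.52), with *Ih* at 1.29 and 0.408. *nAChRbeta3* was at 0.0313 and 0.0402, with a ratio of 0.776 (0.537 to 1.15).

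Because most *repo* cells also had *elav*, the 257 *repo* cells without it were examined on their own. In these, *Ih* (2R, 14276130 to 14300095) and *nAChRalpha7* were the members whose share exceeded that of disc cells, with 8.42% and 2.43% for *Ih* and 5.79% (2.93 to 10.1) and 0.748% (0.387 to 1.30) for *nAChRalpha7*. In 172 *repo* cells without *elav* that were not disc cells, *Ih* was at 0.651 against 0.121 in disc cells, a ratio of 5.38 (4.05 to 7.07). The summed level of 7 neuron markers was 5.98 UMIs per 10000 in *repo* cells without *elav* and 4.32 in disc cells. That of 2 cholinergic markers was 0.0467 and 0.0462, and that of *VGAT* and *Gat* 0.0779 and 0.0191. In *repo* cells with *elav* the neuron markers summed to 14.6, and *VGAT* with *Gat* to 0.0729. Which cells the RNA of *VGAT* and *Gat* came from was not tested. The part of neuronal RNA in the levels of *Ih* and *nAChRalpha7* was not tested. With these cells in place of all *repo* cells, 31 members were called higher in transmitter neurons, against 13.9% of 10211 features.

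Disc cells gave the widest gap. Transmitter neurons were higher for 34 of 35 members and lower for 0, against 19.8% and 9.22% of 10538 features, with a median ratio of 18.7, or 11.1 by a mean over cells and 11.6 at 1000 UMIs. *nAChRalpha7* had the largest ratio, 34.4 (1.24 in transmitter neurons and 0.0361 in disc cells), followed by *Lcch3* (0.370 and 0.0120, ratio 30.7) and *GluClalpha* (1.25 and 0.0481, ratio 26.0). The smallest called ratios were those of *sei* (0.0937 and 0.0430, ratio 2.18), *KCNQ* (0.0166 and 0.00344, ratio 4.82), *SK* (0.997 and 0.155, ratio 6.45) and *cac* (1.19 and 0.144, ratio 8.28). *nAChRbeta3* was again not called, at 0.0308 and 0.0252. Over whole classes, with cells of several classes kept, *sei* was at 0.0940 in transmitter neurons and between 0.0432 and 0.0497 in *gl*, *elav* cells, newborn neurons, *repo* cells and disc cells.

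*nAChRbeta3* (2L, 545129 to 547096), a short and divergent nicotinic subunit gene, was found in blood cells. It was at 2.98 UMIs per 10000 (2.31 to 3.79) in the 16 cells with *Hml* and *NimC1*, 14 of which had it at full depth. In the 74 cells with *Hml* and *Pxn* and no *elav* or *nSyb*, it was at 1.98 (1.73 to 2.25) and 79.7% of cells had it at full depth, against 0.0306 and 0.713% in transmitter neurons, a ratio of 64.6 (52.2 to 80.1). These 74 cells had a median of 15395 UMIs against 5188 UMIs, and at 2000 UMIs the shares were 27.4% and 0.153%. It was the only member whose share in them exceeded the disc share, and the next nicotinic subunits stood at 2.74% for *nAChRalpha5* and 1.37% for *nAChRalpha6*.

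Of all 963 UMIs of *nAChRbeta3*, 867 (95% interval of the share 88.0% to 91.9%) lay in the 1377 cells with *Hml* or *Pxn*. Most of those, 1169 cells, also had *elav* or *nSyb*, and in them the gene was at 0.331, against 1.08 in the 208 cells without either. Whether cells with genes of both kinds are doublets or carry free RNA was not tested.

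**Figure D4:**
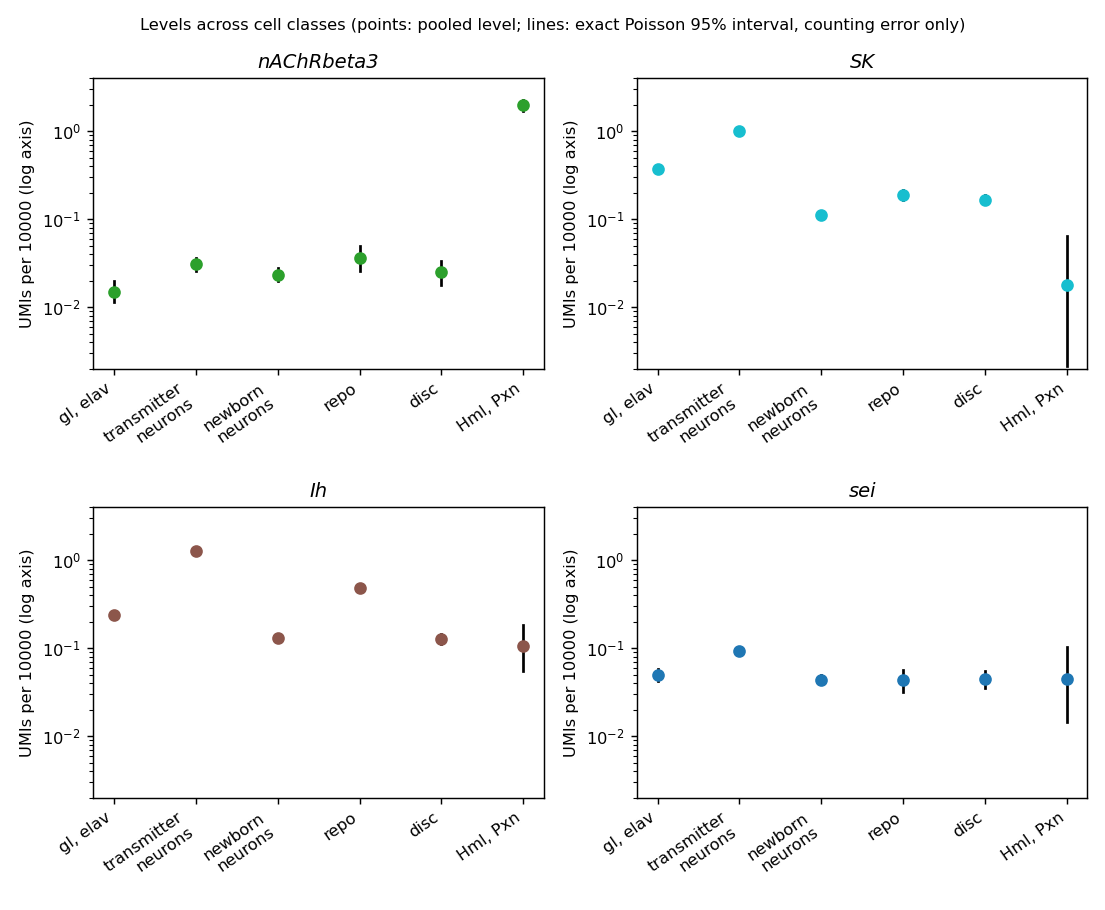
Pooled level, in UMIs per 10000 UMIs on a log axis, of *nAChRbeta3*, *SK*, *Ih* and *sei* in cells with *gl* and *elav*, transmitter neurons, newborn neurons, *repo* cells, disc cells and the 74 cells with *Hml* and *Pxn*. Lines are exact Poisson 95% intervals for counting error. *nAChRbeta3* stands at 1.98 in the *Hml*, *Pxn* cells and at or below 0.0360 in the other 5 classes, *SK* is at 0.371 in *gl*, *elav* cells, and *Ih* is at 0.481 in *repo* cells.

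Within the 5219 transmitter neurons of at least 2000 UMIs, the members also differed in how unevenly they were spread over cells, measured as the variance over the mean of thinned UMIs, which is 1 for random sampling from a constant level. *Rdl* had 5.02, *nAChRalpha6* 4.27, *nAChRalpha7* 2.83 and *nAChRalpha5* 2.01, whereas the 634 features with a mean of 0.3 to 1 UMI had a median of 1.09 and a 90th percentile of 1.90. *para* had 2.39, *slo* 2.08 and *Ca-alpha1T* 2.01 beside a median of 1.04 among 1421 features with means of 0.1 to 0.3. *Sh* had 2.70, with a median of 1.37 and a 90th percentile of 3.71 in its own range. *Rdl* and *nAChRalpha1* give an example: *Rdl* averaged 0.713 UMIs per cell and was seen in 27.2% of cells, with 22 UMIs in the highest cell, and *nAChRalpha1* averaged 0.538 and was seen in 35.0%, with 9 UMIs in the highest cell. The tenth of cells with most *Rdl* held 71.5% of its UMIs.

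Values near 1 were found for *Lcch3* (1.03), *nAChRbeta2* (1.05), *GABA-B-R2* (1.06), *nAChRalpha4* (1.08) and *Shal* (1.08). All features had medians of 1.02 at means of 0.03 to 0.1 and 1.04 at means of 0.1 to 0.3, so at such means a value near 1 says little about how evenly a gene is expressed.

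**Figure D5:**
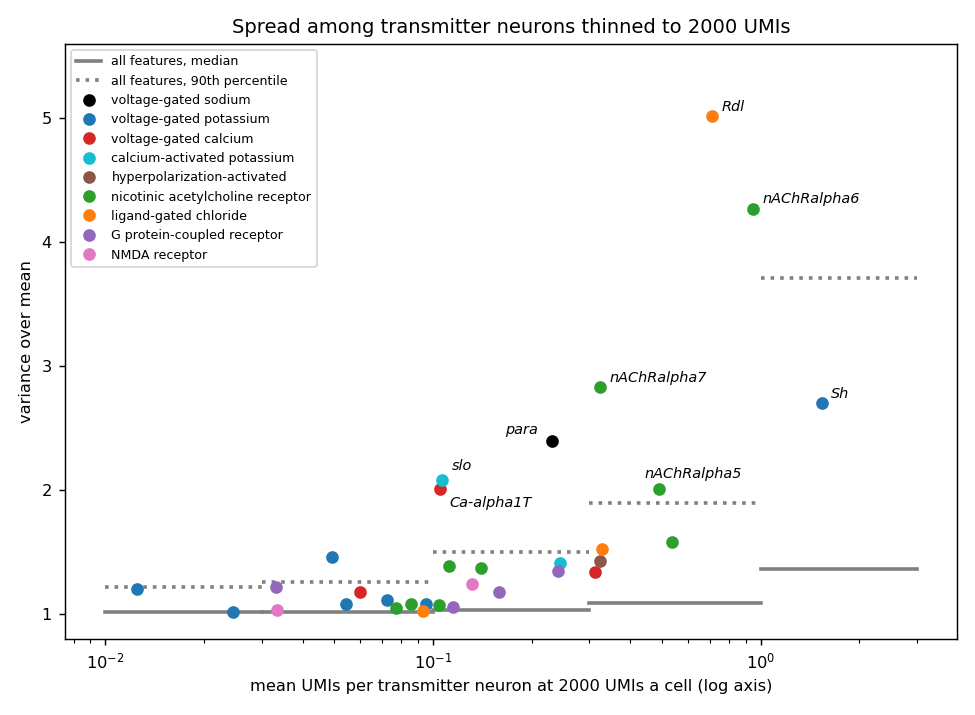
Variance over mean of UMIs across 5219 transmitter neurons thinned to 2000 UMIs, against the mean UMIs per cell on a log axis, for the members with a mean of at least 0.01. Points are genes coloured by family, and grey lines give the median (solid) and the 90th percentile (dotted) of all features in the same range of means. *Rdl* at 5.02 and *nAChRalpha6* at 4.27 stand highest.

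Joint detection was counted for 6 pairs of subunits or receptors, as a description of thinned cells that share their library and depth, and no unrelated pairs were counted. *nAChRalpha7* was seen in 27.4% (25.1 to 29.7) of transmitter neurons with *nAChRalpha5* and 14.3% (13.2 to 15.4) of those without it. *nAChRbeta1* was seen in 12.7% of cells with *nAChRalpha1* and 7.04% without, *Lcch3* in 12.6% with *Rdl* and 7.37% without, and *GABA-B-R2* in 13.9% with *GABA-B-R1* and 9.77% without. For *Nmdar2*, the shares with and without *Nmdar1* were 15.4% (10.3 to 21.7) and 11.0% (10.2 to 11.9), whose intervals overlap, as do those of *Grd* with and without *Rdl*, 0.0705% and 0.0526%. Maturity differs among these cells, and its part in the joint detection was not tested.

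Genes that act with the channels and other receptors were read from lists of known names. Of the 11 tested accessory subunits, 11 were higher in transmitter than in newborn neurons, with a median ratio of 10.4. Among them were *CG4587*, a calcium channel subunit of the alpha2-delta type (1.46 in transmitter and 0.181 in newborn neurons), *qvr*, which promotes Shaker currents (1.39 and 0.0929), and *Hk*, the beta subunit of Shaker channels (0.488 and 0.0362). All 16 tested other G protein-coupled receptors were higher too, with a median ratio of 14.3, led in UMIs by *DopEcR* (0.687 and 0.0544), *Dop2R* (0.475 and 0.0310) and *Dop1R1* (0.343 and 0.0213), receptors for dopamine. Both shares stand beside the 15.3% of all features called higher.

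The remaining lists were mixed. Of 8 tested other ionotropic receptors 5 were higher and 0 lower, including *GluRIB* (0.394 in transmitter and 0.0250 in newborn neurons), *GluRIA* (0.265 and 0.0184) and *KaiR1D* (0.197 and 0.0481), all glutamate receptors. Of 12 other channels 2 were higher and 1 lower, with a median ratio of 1.02, a share of higher genes near the 15.3% of all features. The leak channel *na* (0.260 and 0.0378) and the sodium channel relative *NaCP60E* (0.383 and 0.170) were the higher ones, *Irk2*, with 4 UMIs in transmitter neurons, the lower one, and *ClC-b* was at 0.248 and 0.243.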

How the data were processed

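Single cells of brains with eye discs were sequenced as 10x libraries. According to the methods the authors mapped reads to BDGP6 and counted UMIs with Cell Ranger, and Seurat is named in the submitters' processing notes. The deposited values are natural log values made by the authors: UMIs were scaled to 10000 in each cell, 1 was added and the logarithm taken. After this was undone, 100% of the values above 0 were whole UMIs within 0.01, and these were used. Both tables are identical, and 1 was used. Filters on cells are not given in the sources used here. Multiplets were called with Scrublet in scanpy 1.11.5 and kept. Levels, exact Poisson, Clopper-Pearson and conditional binomial 95% intervals were computed in Python 3.11.15 with scipy 1.17.1, and the code was tested on simulated data. Intervals cover counting error only, and a count of 0 allows up to 3 UMIs. Gene positions are from the Ensembl release 115 annotation, matched by symbol for 36 of 36 genes, and protein or promoter sequences are not used here. Members called in a comparison are named with their values, others by counts with up to 5 named, and from each further list up to 3 genes with the most UMIs in transmitter neurons; of those lists *stol*, *CG7589* and *KaiR1C* were not analysed here. *Irk2* and the genes drawn by class were named after their values were seen. The members, lists and classes were chosen with earlier results of these data known. Alternatives were a mean over cells, thinning to 2000 or 1000 UMIs, gates at 2 UMIs, removal of called doublets or of cells in several classes, other minimums of UMIs, a 1.5-fold limit, and other gates added after seeing the data.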

Additional observations from a re-analysis of the deposited data

How the results depend on the processing

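The calls between neurons and other cells kept their direction under every alternative, with 1 exception. For *nAChRbeta3* in *gl*, *elav* cells over transmitter neurons, the log2 ratio was 0.39 with cells thinned to 1000 UMIs, in place of a lower level. Of 150 recomputed counts of members, 134 stayed within 1.5 times the main count, and the other 16 moved away from a count of 0. Of the recomputed ratios of single members, 887 lay inside the 95% interval first computed for that gene, 886 lay outside it and 1 reversed. Cholinergic over glutamatergic neurons gained 1 higher member by a mean over cells (*slo*), 3 at 2000 UMIs (*para*, *slo* and *Rdl*), 2 at 1000 UMIs (*slo* and *Shab*), 1 with gates at 2 UMIs (*nAChRbeta3*) and 1 at a fold of 1.5 (*slo*), beside 2.15%, 2.05%, 2.22%, 3.77% and 4.06% of all features. Cholinergic over GABAergic neurons gained 2 lower members with gates at 2 UMIs (*Ca-alpha1T* and *nAChRalpha2*) and 1 at a fold of 1.5, beside 2.34% and 2.81%. Glutamatergic over GABAergic neurons gained 2 lower members by a mean over cells, 3 at 2000 UMIs, 2 at 1000 UMIs, 5 with gates at 2 UMIs and 5 at a fold of 1.5, among which *slo* and *Shab* were in each set, beside 2.06%, 2.07%, 2.24%, 3.16% and 3.95% of all features. Hox-positive over Hox-negative neurons gained 1 lower member without called doublets (*nAChRbeta3*), 1 at a fold of 1.5 (*Sh*) and 1 within cholinergic neurons (*Elk*), beside 4.32%, 5.96% and 3.38%. Transmitter neurons over *repo* cells gained 1 lower member with gates at 2 UMIs (*nAChRbeta3*), beside 10.4%. The causes were not tested. No paired analysis was possible because the identical tables give 1 library, and no replicate could be left out. With 1 library of open genotype, no value measures the spread between animals.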
